A study of Drosophila melanogaster with 2 samples.

Results

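Occupancy by CG17802 (gene symbol Nnk), which belongs to the large ZAD class of zinc-finger proteins, was described for the 10 listed genes of the Enhancer of split complex, E(spl), among 13968 protein-coding genes on the main chromosome arms of Drosophila melanogaster. The genes were taken by symbol as members of the complex, with no threshold on a measured value, although earlier results of these data were known. They are 7 bHLH genes (E(spl)mdelta-HLH, E(spl)mgamma-HLH, E(spl)mbeta-HLH, E(spl)m3-HLH, E(spl)m5-HLH, E(spl)m7-HLH and E(spl)m8-HLH) and 3 Bearded family genes (E(spl)malpha-BFM, E(spl)m2-BFM and E(spl)m4-BFM). All 10 matched the annotation and lay on 3R within 43.4 kb, from 25997621 to 26041008 (dm6, 1-based), with 1 annotated transcription start site (TSS) and 1 coding exon each. The data are ChIP-seq libraries of 2 biological replicates of whole embryos, male and female pooled, aged 0 to 14 h. The embryos carry a stable transgene for CG17802 with GFP at its C terminus, so the tagged protein and not the native one was followed, in all embryonic tissues at once. Both replicates come from the same fly line and form 1 group, so nothing below compares conditions and no test was possible. A label field calls the libraries an input control, whereas the antibody field names CG17802 and a separate control is listed.

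E(spl) genes are the classical direct targets of Notch signalling. Ligand binding releases the intracellular part of Notch, which joins the DNA-binding protein Su(H) and the co-activator Mastermind at these genes. The bHLH members encode repressors that recruit the co-repressor Groucho and block proneural genes, which keeps cells next to a future neural cell from the same fate. The Bearded family members encode small proteins that restrain Neuralized, the ubiquitin ligase needed for ligand activity.

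The authors deposited 4 peak lists. The lists of replicate 1, of replicate 2 and of both pooled held 30000 peaks each, background peaks included. The set that the authors name as thresholded for reproducibility between replicates held 3535 peaks, with signals taken from the pooled list. Some of its peaks, 2 of them in the complex, have no counterpart in replicate 1, and the sources used here do not say how those passed the threshold. Signal is the authors' value on a scale that is not stated, so it is ranked within a list (rank 1 is highest) and never compared between lists. The lowest and median signals were 14.7 and 19.2 in replicate 1, 23.8 and 33.3 in replicate 2, 33.7 and 45.8 in the pooled list, and 109.8 and 186.5 in the thresholded set. The number of reads behind each list is unknown, so no counting error can be attached to a signal, and the spread between the replicates' ranks is the only error available.

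The thresholded summits that the results turn on are shown first, as 201 bases centred on the summit, from the RefSeq dm6 assembly. The first line is the summit upstream of E(spl)mdelta-HLH and the others are the 5 summits inside the complex, in chromosomal order and on the plus strand. Capitals mark matches to the motifs spelled out further on.

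chr3R:25997188-25997388, 333 bp upstream of E(spl)mdelta-HLH: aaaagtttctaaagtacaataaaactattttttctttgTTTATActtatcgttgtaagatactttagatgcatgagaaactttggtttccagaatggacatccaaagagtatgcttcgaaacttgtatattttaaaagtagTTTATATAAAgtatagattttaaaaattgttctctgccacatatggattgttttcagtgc
chr3R:26009036-26009236, between E(spl)mbeta-HLH and E(spl)malpha-BFM: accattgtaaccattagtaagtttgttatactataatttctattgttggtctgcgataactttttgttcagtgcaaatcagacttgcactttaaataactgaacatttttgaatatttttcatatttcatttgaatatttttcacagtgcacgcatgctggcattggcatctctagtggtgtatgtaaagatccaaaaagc
chr3R:26017965-26018165, 595 bp upstream of E(spl)m2-BFM: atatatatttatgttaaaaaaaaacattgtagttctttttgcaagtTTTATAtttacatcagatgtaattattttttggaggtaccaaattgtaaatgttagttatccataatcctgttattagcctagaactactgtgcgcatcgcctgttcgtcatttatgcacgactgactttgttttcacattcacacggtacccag
chr3R:26020345-26020545, 1378 bp upstream of E(spl)m3-HLH: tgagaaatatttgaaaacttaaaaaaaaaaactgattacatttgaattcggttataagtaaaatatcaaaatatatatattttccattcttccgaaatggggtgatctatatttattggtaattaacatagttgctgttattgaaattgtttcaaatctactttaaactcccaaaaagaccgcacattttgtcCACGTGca
chr3R:26021264-26021464, 459 bp upstream of E(spl)m3-HLH: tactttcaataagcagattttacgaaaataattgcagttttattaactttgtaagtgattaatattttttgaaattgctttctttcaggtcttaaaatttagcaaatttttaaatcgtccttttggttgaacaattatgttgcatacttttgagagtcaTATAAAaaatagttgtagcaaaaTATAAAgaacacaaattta
chr3R:26036611-26036811, 327 bp upstream of E(spl)m7-HLH: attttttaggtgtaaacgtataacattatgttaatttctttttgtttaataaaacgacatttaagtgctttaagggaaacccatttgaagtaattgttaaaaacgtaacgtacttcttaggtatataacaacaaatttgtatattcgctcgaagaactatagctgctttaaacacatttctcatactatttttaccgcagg

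The stretches are rich in A and T, at 27.4% GC for the first and 23.4% to 31.8% GC for the 5 inside the complex.

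Of the 10 genes, 3 had a thresholded summit within 500 bp of the TSS, namely E(spl)mdelta-HLH, E(spl)m3-HLH and E(spl)m7-HLH. All 3 are bHLH genes (3 of 7), and 0 of the 3 Bearded family genes had one. Among all protein-coding genes 16.8% had one (2352 of 13968), and on 3R 17.7% (606 of 3421). With 10 genes, 3 against a background of 16.8% describes these genes and is not evidence that the complex stands apart. The summits of these 3 genes lay upstream of the TSS. No member had one within 200 bp, where 12.3% of all genes did. Within 1000 bp 4 members had one, with E(spl)m2-BFM added, where 19.2% of all genes did. With 10 genes, these counts too only describe the members and are not evidence of a difference from other genes. By the rule that gives a summit only to the gene of its nearest TSS, 1 member remained, E(spl)m7-HLH, against 12.3% of all genes.

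**Figure D1:**
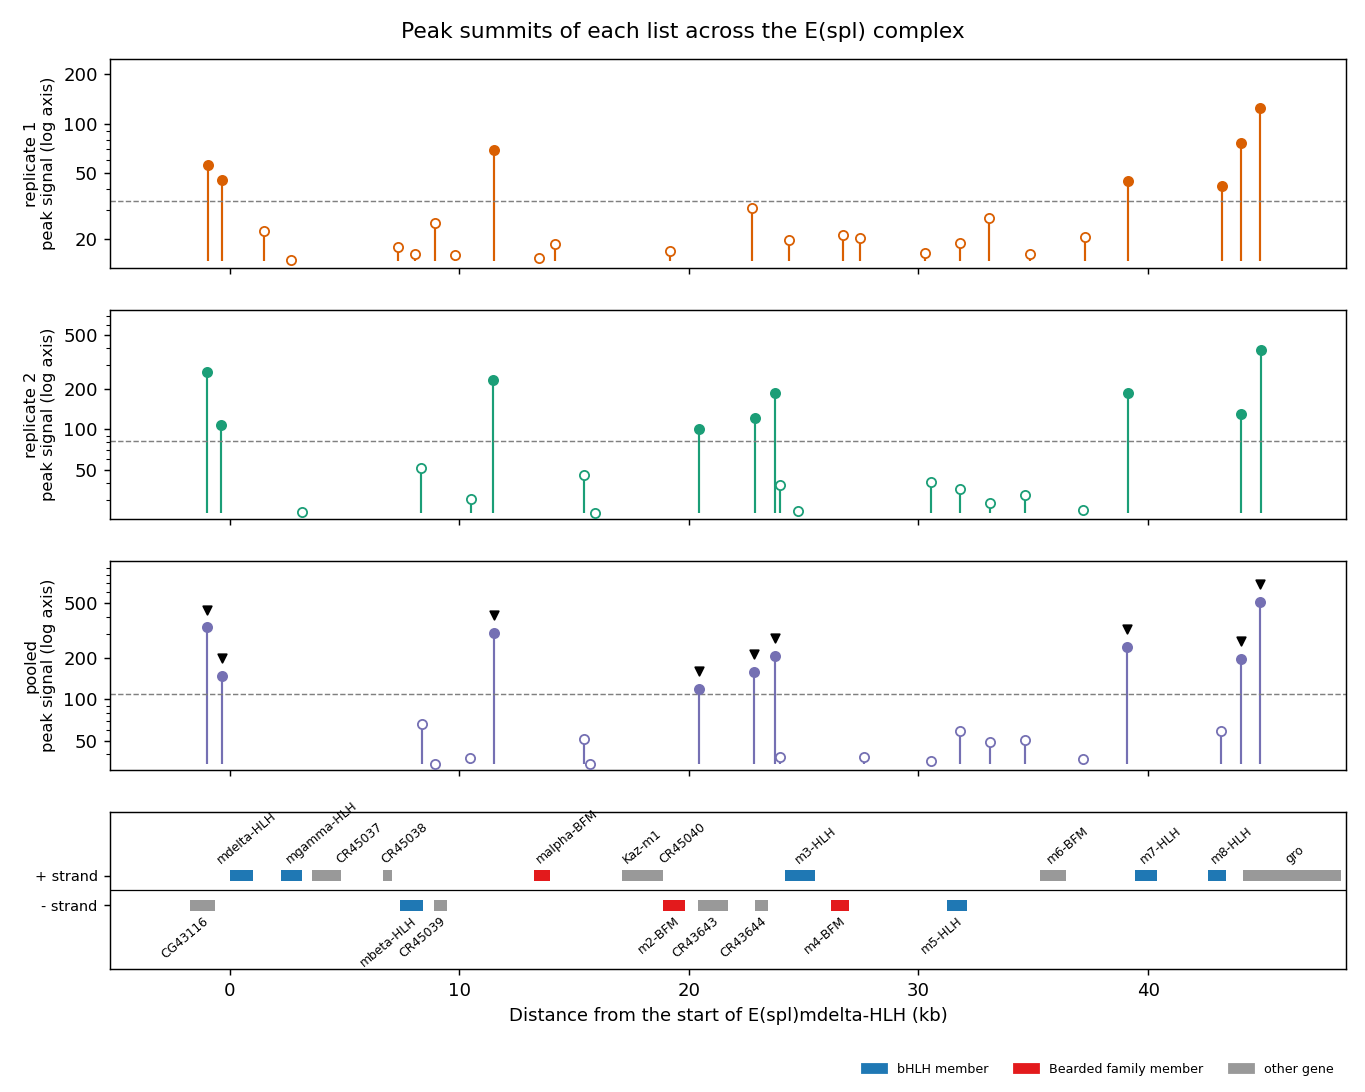
Peak summits across the complex and 5000 bp on each side, by distance from the start of E(spl)mdelta-HLH in kb, with authors' signal on a log axis in a panel for each list; filled points are among the 3535 highest of their list (dashed line), black triangles mark the thresholded set, and the bottom panel shows the genes by strand. Of the 5 thresholded summits inside the complex, all have a filled counterpart in replicate 2 and 2 have one in replicate 1, which has 1 further filled point inside the complex, in E(spl)m8-HLH.

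E(spl)m7-HLH, a bHLH repressor expressed in proneural clusters, had the strongest member summit within 500 bp in the pooled list and in replicate 2. Its peak (chr3R:26036546-26036875) had a signal of 45.0 and rank 2259 in replicate 1, 187.8 and rank 1194 in replicate 2, and 239.9 and rank 1281 in the pooled list. The summits lay 299, 290 and 327 bp upstream of the TSS in these lists, in intergenic DNA, and the gene's own TSS was the nearest. It is the only member whose summit was high in both replicates and closer to it than to any other gene.

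E(spl)mdelta-HLH, the first gene of the complex, had a peak (chr3R:25997123-25997452) weaker than that of E(spl)m7-HLH in replicate 2 and the pooled list, but not in replicate 1. It ranked 2228 in replicate 1 (signal 45.4), 2479 in replicate 2 (108.5) and 2426 in the pooled list (147.4), so the replicates ranked it alike. The pooled summit lay 333 bp upstream of E(spl)mdelta-HLH and 292 bp from the TSS of CG43116, which is transcribed away from it on the other strand. A stronger peak lay farther out, in an intron of CG43116, 992 bp upstream of E(spl)mdelta-HLH (pooled signal 333.1, rank 802; rank 1659 in replicate 1 and 712 in replicate 2).

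At E(spl)m3-HLH the replicates differed. The peak (chr3R:26021199-26021528) had a signal of 186.1 and rank 1211 in replicate 2 and 206.4 and rank 1549 in the pooled list, with the same summit in both, 459 bp upstream of the TSS. Replicate 1 listed no peak overlapping it, although its list reached down to a signal of 14.7. The nearest replicate 1 summit was 634 bp away and 175 bp inside the gene, in the 5′ UTR, with a signal of 19.7 and rank 14055. Such a gap was uncommon: 59 of the 3535 thresholded peaks (1.67%) had no overlapping peak in replicate 1, and 6 (0.170%) had none in replicate 2. Among the 1549 thresholded peaks that ranked as high as this one or higher, 2 had none in replicate 1, and this peak is 1 of the 2. The summit was also closer to lncRNA:CR43644 (288 bp) than to E(spl)m3-HLH. When the 3535 highest peaks of replicate 1 alone were used, E(spl)m3-HLH was lost and 2 members remained, against 16.4% of all genes, whereas replicate 2 alone kept all 3, against 16.8%.

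The next 2 members had summits that did not enter the thresholded set. E(spl)mbeta-HLH, a bHLH gene, had one 45 bp downstream of its TSS, in the 5′ UTR, in the pooled list (signal 66.3, rank 7128) and one at 49 bp in replicate 2 (52.1, rank 6561). Replicate 1 placed its summit at 309 bp, in the coding exon, with a signal of 16.2 and rank 23814. E(spl)m5-HLH, a bHLH gene of the proneural clusters, had a summit at exactly the same base in all lists, 293 bp downstream of the TSS in the coding exon. Its signal and rank there were 18.7 and 16246 in replicate 1, 36.0 and 12739 in replicate 2, and 58.5 and 8902 in the pooled list. These ranks lie far below the 3535 highest.

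Summits of low rank were seen at 3 further members in replicate 1 alone. The signals were 14.8 at E(spl)mgamma-HLH (rank 29302, 426 bp downstream), 15.2 at E(spl)malpha-BFM (rank 27737, 208 bp downstream) and 21.1 at E(spl)m4-BFM (rank 11473, 253 bp downstream), all in coding exons. The last gene had a second replicate 1 summit 480 bp upstream. The first 2 of these signals were close to the lowest in the list, and neither replicate 2 nor the pooled list had a summit within 500 bp of any of the 3. Counting summits of any rank, 8 members had one in replicate 1, against 45.1% of all genes, 5 in replicate 2, against 47.2%, and 5 in the pooled list, against 46.9%. The 5 were the same genes in both of those lists. Summits of any rank were thus common at genes throughout the genome.

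E(spl)m2-BFM and E(spl)m8-HLH had no summit within 500 bp in any list. For E(spl)m2-BFM, of the Bearded family, a thresholded summit lay 595 bp upstream, in a non-coding exon of lncRNA:CR43643 (pooled signal 118.8, rank 3186; replicate 2 100.4, rank 2734). As at E(spl)m3-HLH, replicate 1 had no overlapping peak, and its nearest summit was 1268 bp away. E(spl)m8-HLH, the gene altered in the dominant allele that gave the complex its name, showed the reverse. Replicate 1 had a summit 606 bp downstream of the TSS in the coding exon with a signal of 41.8 and rank 2516, the pooled list had one at 567 bp with 59.2 and rank 8709, and replicate 2 had none closer than 1437 bp, at gro.

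**Figure D2:**
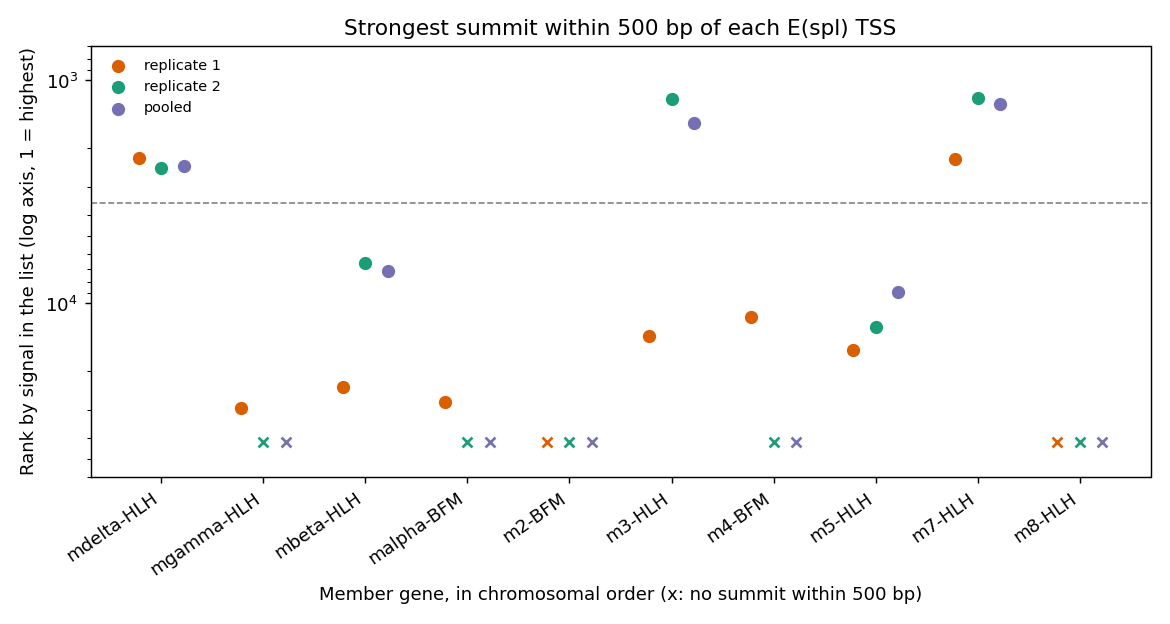
Rank by signal (log axis, 1 is highest) of the strongest summit within 500 bp of each member's TSS, in chromosomal order, for replicate 1, replicate 2 and the pooled list; crosses mark no summit and the dashed line is rank 3535. E(spl)mdelta-HLH and E(spl)m7-HLH lie above the line in every list, and E(spl)m3-HLH lies above it in replicate 2 and the pooled list but at rank 14055 in replicate 1.

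The 3 members with a thresholded summit had distances of 327 to 459 bp (median 333 bp), all upstream. Over all 2352 bound genes the median was 116 bp, 73.0% had a summit within 200 bp, 13.3% were at 300 bp or more, and 88.1% had it upstream. This comparison was chosen after the members' values were seen, and it rests on 3 genes.

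**Figure D3:**
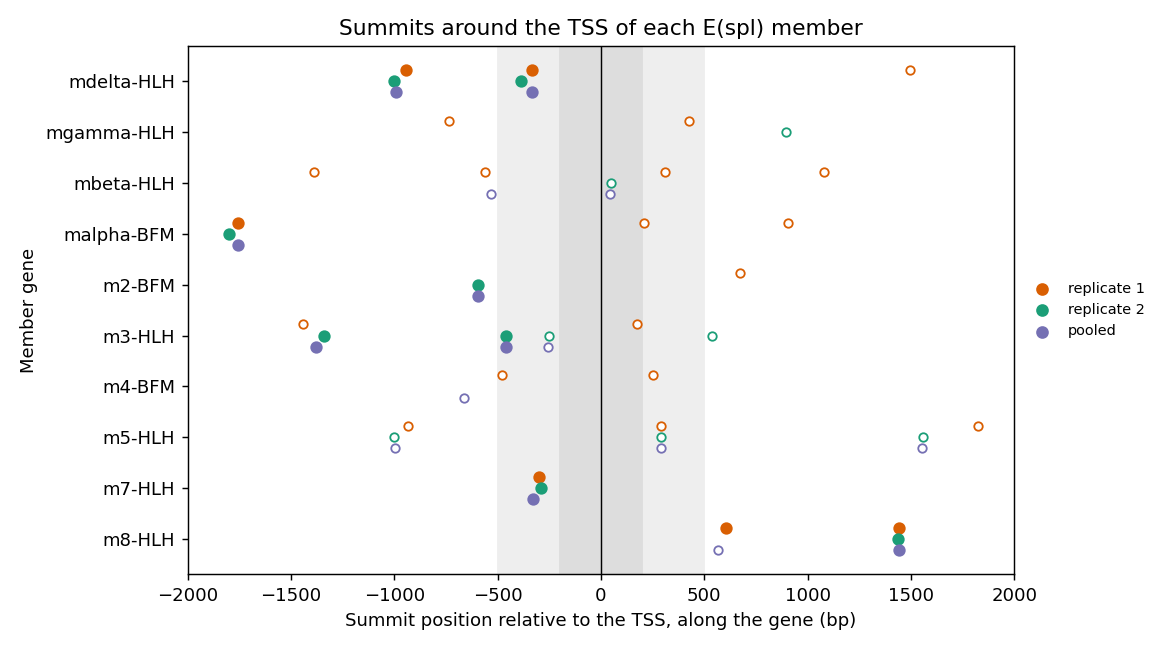
Summit positions relative to each member's TSS along the gene in bp (negative is upstream), for replicate 1, replicate 2 and the pooled list; filled points are among the 3535 highest of their list, and the grey bands mark 500 bp and 200 bp. No filled point lies within 200 bp of a TSS, and within 500 bp the filled points, those of E(spl)mdelta-HLH, E(spl)m3-HLH and E(spl)m7-HLH, lie between 290 and 459 bp upstream.

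Between the genes, the strongest summit inside the complex lay far from any promoter. It was in the intergenic DNA between E(spl)mbeta-HLH and E(spl)malpha-BFM, 1757 bp upstream of E(spl)malpha-BFM (3R:26009136), with a pooled signal of 305.2 and rank 925. Replicate 1 had its summit at the same base (69.5, rank 1244) and replicate 2 at 42 bp from it (234.8, rank 861), so both ranked it high. A second intergenic summit lay 1378 bp upstream of E(spl)m3-HLH and 631 bp from the TSS of lncRNA:CR43644 (pooled signal 157.1, rank 2225). The replicate 2 summit of this peak lay in a non-coding exon of lncRNA:CR43644. The peak ranked 2137 in replicate 2 and 4335 in replicate 1, outside the highest 3535 there.

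In all, 5 thresholded summits lay inside the complex and 4 more in the 5000 bp on each side. This is 115.2 summits per Mb inside the complex against 24.1 per Mb on 3R (773 summits). The region is dense in genes, with TSSs of 18 genes in the 43.4 kb of the complex against 4332 in the 32079 kb of 3R. The region was drawn around the chosen genes, and an excess of summits over 3R was not tested. The 5 summits inside the complex had signals of 118.8 to 305.2 with a median of 206.4, around the 3R median of 183.1. The 3535 highest peaks of replicate 1 placed 3 summits inside the complex and those of replicate 2 placed 5; with peaks of any rank the counts were 21 and 17, and 18 in the pooled list. Without replicate 2, then, the complex keeps 3 summits, of which 1 is the E(spl)m8-HLH summit that replicate 2 lacks. The 2 remaining flank summits belong to gro, which encodes Groucho. One lay 56 bp from its TSS (pooled signal 195.4, rank 1671) and the other in a gro intron, 132 bp from another gro TSS, with the highest signal of the region (509.7, rank 446; rank 550 in replicate 1 and 436 in replicate 2).

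The other genes with a TSS inside the complex are Kaz-m1, which encodes a Kazal-type protease inhibitor, E(spl)m6-BFM, of the Bearded family, and lncRNA:CR45037, lncRNA:CR45038, lncRNA:CR45039, lncRNA:CR45040, lncRNA:CR43643 and lncRNA:CR43644. Of these 8, lncRNA:CR43644 alone had a thresholded summit within 500 bp of its TSS, the one it shares with E(spl)m3-HLH.

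The thresholded summits inside the complex lay in AT-rich DNA. Inside the complex the 201-bp windows of the 5 thresholded summits had a median of 28.4% GC, against 50.7% (27.9% to 62.2%) for the 13 other pooled-list summits and 46.8% for windows placed every 50 bp along the complex. The E(spl)m3-HLH window had the lowest, 23.4%, and 0.537% of all thresholded windows were lower. The same direction held over the genome with a smaller gap: the median was 36.3% for thresholded summits and 45.3% for the other pooled-list summits. Windows at or below 31.8%, the highest value of the 5, made up 14.2% of the complex and 22.6% of all thresholded summits. The thresholded summits of the flanks were mixed. Those upstream of E(spl)mdelta-HLH had 28.4% and 27.4% GC, while those of gro had 45.3% and 39.8%, above the median of all thresholded summits. Replicate 1 summits inside the complex lay in coding exons for 7 of 21 (33.3%; 20.7% over the genome), against 2 of 17 (11.8%; 13.9%) in replicate 2 and 0 of 5 in the thresholded set (1.64%).

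The replicates also ranked thresholded peaks differently by base composition over the whole genome. From the lowest to the highest of 5 GC classes of 636 to 760 peaks, the median rank in replicate 1 was 2079, 1765.5, 1832, 1630 and 1588, and in replicate 2 it was 1503.5, 1599, 1753, 1864 and 2065. These medians leave out peaks with no overlapping peak in that replicate. By class they were 23, 18, 4, 7 and 7 in replicate 1 and 0, 1, 2, 1 and 2 in replicate 2. AT-rich sites thus ranked higher in replicate 2 and GC-rich sites in replicate 1. The 59 thresholded peaks with no replicate 1 peak had a median of 32.8% GC, against 36.3% for the 3476 others, and 23 of them fell in the lowest class. That class held 708 peaks, of which 3.25% had no replicate 1 peak, against 1.67% of all thresholded peaks. The peaks near E(spl)m3-HLH (23.4%, lowest class) and E(spl)m2-BFM (31.8%, second class) belong to the 59. The E(spl)m8-HLH summit of replicate 1 that replicate 2 lacks had 60.2% GC. The E(spl)mdelta-HLH peak (27.4%, lowest class) went the other way, with rank 2228 in replicate 1 and 2479 in replicate 2. The part of base composition in these absences and ranks was not tested. These measures of GC content and of summits in coding exons were chosen after the members' values were seen.

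**Figure D4:**
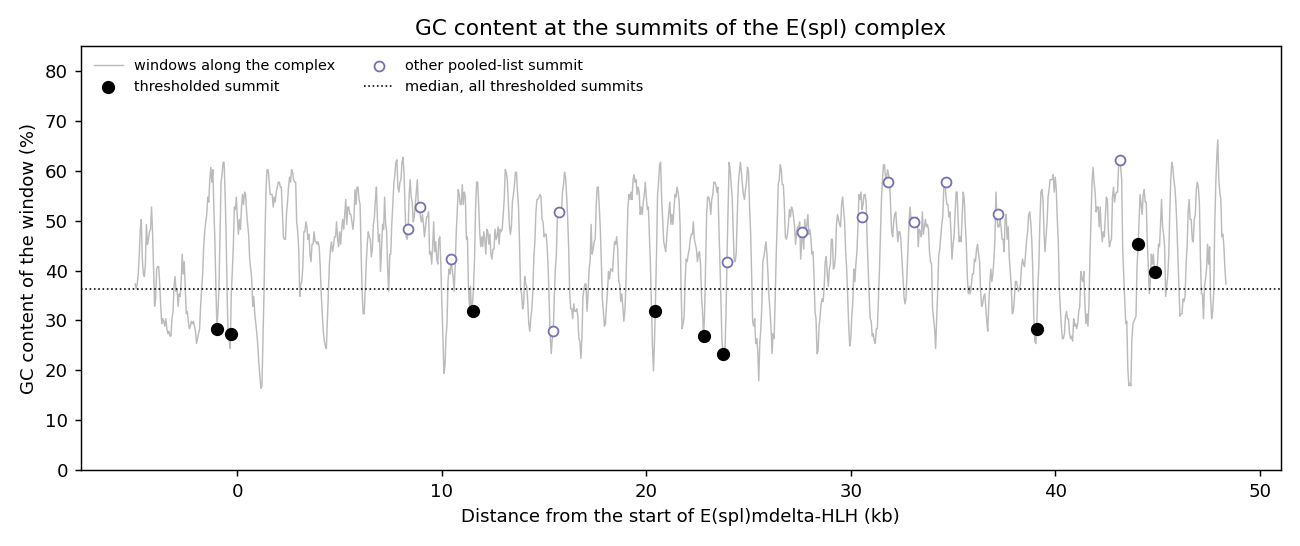
GC content in percent of 201-bp windows along the complex and its flanks, by distance from the start of E(spl)mdelta-HLH in kb (grey line), with thresholded summits (black), other pooled-list summits (open) and the median of all thresholded summits (dotted, 36.3%). The 5 black points inside the complex lie between 23.4% and 31.8%, while all but 1 of the 13 open points inside it lie above the dotted line.

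The promoters themselves had the opposite composition. Taken as 300 bp, from 250 bp upstream of the TSS to 50 bp downstream, the members' promoters had 49.3% to 59.0% GC, against a median of 38.0% over all 13968. The summits of the 3 bound members lay upstream of these windows. The promoters of those 3 genes, and of E(spl)m4-BFM and E(spl)m8-HLH, are printed 5′ to 3′ on the gene's strand, from the RefSeq dm6 assembly with motif matches in capitals. The strand is plus for all printed genes but E(spl)m4-BFM, which is on the minus strand. Both E(spl)m4-BFM and E(spl)m8-HLH hold Su(H) sites but no thresholded summit within 500 bp. E(spl)m5-HLH is alike in both respects, and its promoter is not printed.

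E(spl)mdelta-HLH, chr3R:25997371-25997670: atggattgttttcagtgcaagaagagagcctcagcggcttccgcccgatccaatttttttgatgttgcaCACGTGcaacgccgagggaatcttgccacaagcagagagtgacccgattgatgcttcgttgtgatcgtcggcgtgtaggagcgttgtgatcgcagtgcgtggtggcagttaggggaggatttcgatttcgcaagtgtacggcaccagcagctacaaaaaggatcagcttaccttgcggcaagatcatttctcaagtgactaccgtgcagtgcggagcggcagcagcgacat
E(spl)m3-HLH, chr3R:26021573-26021872: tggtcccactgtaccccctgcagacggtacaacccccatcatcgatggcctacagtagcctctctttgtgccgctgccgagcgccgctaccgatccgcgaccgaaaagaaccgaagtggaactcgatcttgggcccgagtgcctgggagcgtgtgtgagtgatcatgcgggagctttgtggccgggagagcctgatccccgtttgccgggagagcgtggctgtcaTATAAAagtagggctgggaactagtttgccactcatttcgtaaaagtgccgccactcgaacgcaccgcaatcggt
E(spl)m7-HLH, chr3R:26036788-26037087: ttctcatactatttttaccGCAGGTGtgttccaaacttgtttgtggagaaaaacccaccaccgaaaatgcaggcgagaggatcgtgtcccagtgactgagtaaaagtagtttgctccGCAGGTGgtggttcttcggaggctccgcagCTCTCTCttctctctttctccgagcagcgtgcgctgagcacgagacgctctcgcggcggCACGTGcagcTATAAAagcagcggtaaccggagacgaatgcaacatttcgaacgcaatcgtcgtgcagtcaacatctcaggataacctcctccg
E(spl)m4-BFM, chr3R:26024530-26024829: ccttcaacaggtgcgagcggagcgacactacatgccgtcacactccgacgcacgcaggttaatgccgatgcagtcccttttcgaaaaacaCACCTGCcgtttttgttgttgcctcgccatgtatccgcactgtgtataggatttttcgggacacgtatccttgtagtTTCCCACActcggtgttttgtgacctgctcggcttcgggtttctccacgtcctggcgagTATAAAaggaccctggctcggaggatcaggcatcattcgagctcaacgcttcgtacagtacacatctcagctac
E(spl)m8-HLH, chr3R:26039990-26040289: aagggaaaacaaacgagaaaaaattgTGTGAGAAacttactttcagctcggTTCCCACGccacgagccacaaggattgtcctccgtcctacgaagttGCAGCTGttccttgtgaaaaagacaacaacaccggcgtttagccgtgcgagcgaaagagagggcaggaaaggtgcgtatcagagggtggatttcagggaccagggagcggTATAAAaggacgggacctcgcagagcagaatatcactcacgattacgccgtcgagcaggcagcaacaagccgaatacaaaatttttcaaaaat

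The motifs were searched on both strands and may overlap each other. The Su(H) site (CGTGGGAA, TGTGGGAA, CGTGAGAA or TGTGAGAA) was found in 3 of the 10 promoters, those of E(spl)m4-BFM, E(spl)m5-HLH and E(spl)m8-HLH, against 3.18% of all promoters. The A-class E-box bound by proneural proteins (GCAGGTG or GCAGCTG) was found in those of E(spl)m4-BFM, E(spl)m7-HLH and E(spl)m8-HLH, against 8.70%. The site of the E(spl) bHLH repressors themselves (CACGTG or CACGCG) was found in 2, E(spl)mdelta-HLH and E(spl)m7-HLH, against 10%. The TATA box letters (TATAAA), counted anywhere in the 300 bp, were found in 8, against 45.8%. In those 8 members they lay 24 to 43 bp upstream of the TSS. The share of all promoters with the letters at that position was not counted. The exceptions were E(spl)mdelta-HLH and E(spl)mgamma-HLH, but the latter holds TATATAAG, which the search letters do not match. The site of the early activator Zelda (CAGGTAG) was found in 1, E(spl)m5-HLH, against 1.64%. The GAGA repeat (GAGAGAG) was found in 2, E(spl)mbeta-HLH and E(spl)m7-HLH, against 5.86%. The DRE (TATCGATA) and Motif 1 (GGTCACAC), both core promoter motifs of broadly expressed genes, were found in 0 of 10, against 9.36% and 7.69%.

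In the 201-bp windows of the 5 summits inside the complex there were 4 matches, 3 of the TATA box letters and 1 of CACGTG, found 93 bp from the summit that lies 1378 bp upstream of E(spl)m3-HLH. The TATA box letters were in 2 of the 5 windows, against 32.3% of all thresholded windows. The site of the bHLH repressors (CACGTG or CACGCG) was in 1, against 5.52%. None of the 5 windows held the DRE, found in 6.48% of all thresholded windows. The 201-bp windows between E(spl)mbeta-HLH and E(spl)malpha-BFM and in front of E(spl)m7-HLH held no complete match to any of the 8 motifs. The E(spl)m7-HLH window, however, ends within the upstream GCAGGTG printed in that gene's promoter. This A-class E-box lies inside the E(spl)m7-HLH peak, so its absence from the window is due to the window's edge. With 250 bp on each side of the summit, 1 of the 5 windows held the A-class E-box, with 2 matches.

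Genes that act with E(spl) were taken from 7 lists with 42 genes, of which 6 (14.3%) had a thresholded summit within 500 bp, a share close to the 16.8% of all genes. Among nuclear factors and co-repressors it was 2 of 5: H, which encodes the Hairless adaptor that brings co-repressors to Su(H) (signal 554.6, rank 405), and gro. Su(H) itself, mam and CtBP had none. Among genes for Notch processing, glycosylation and endocytosis it was 3 of 14: l(2)gd1, a regulator of Notch trafficking (671.0, rank 330), numb, a Notch inhibitor (227.9, rank 1372), and aph-1, a gamma-secretase subunit (133.2, rank 2771), whose summit lay closer to Snx21. Of 9 proneural and partner genes, da alone had one, and it was the highest of the 42 (1257.7, rank 179). It encodes the bHLH partner of the proneural proteins. The receptor N and the ligands Delta and Ser (0 of 3), Kaz-m1 and E(spl)m6-BFM (0 of 2), the Bearded family genes outside the complex (0 of 4) and the related bHLH repressor genes outside it, such as dpn and Hey (0 of 5), had none. The strongest summits of the 6 bound list genes lay 76 to 297 bp from the TSS, with aph-1 the farthest, and those of the 3 bound E(spl) genes 327 to 459 bp.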

How the data were processed

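Per the labels, the libraries are transcription factor ChIP-seq of 2 biological replicates, sheared by sonication to 200 to 800 bp, and the assembly is dm6. The authors deposited peak lists per replicate, for pooled replicates, and a set thresholded for reproducibility (IDR). Not given in the sources used here: aligner, peak caller and IDR threshold. The signal the authors deposited has no stated scale and was used for ranks within a list. The −log10 q-value the authors deposited reached a ceiling of 3.66 shared by 2303 pooled peaks and was used only as another ranking. Other deposited values, the summit offsets, gave summit positions (start plus offset); offsets outside their interval (1 in replicate 1, 4 in replicate 2) were replaced by the midpoint. Depth is unknown.

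Genes and TSSs came from Ensembl release 115 and sequence from the RefSeq assembly of the same build; the members' TSSs were identical in both. Peaks matched between lists where they overlapped by 1 bp. Members, lists and motifs were chosen with earlier results of these data known. Named genes were the members, every gene with a TSS inside the complex or its 5000 bp flanks, the gene nearest each summit, and list genes with a thresholded summit; list genes without one (Su(H), mam, CtBP, N, Delta, Ser, dpn and Hey) were named outside this rule, after their values were seen. Counting used Python 3.11.15, pandas 2.3.3 and numpy 2.4.6, and was checked on simulated peaks. Alternatives covered distances, TSS choice, threshold, replicates, annotation and windows.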

Additional observations from a re-analysis of the deposited data

How the results depend on the processing

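Under the alternatives, 31 values were classed as the same as the main value and 13 as moved. The first class was broad. It held 1716 protein-coding genes at 200 bp, against 2352, and 8 list genes at 1000 bp, against 6. Members with a thresholded summit within 500 bp were 0 at 200 bp and 1 by nearest gene only, against 3. All protein-coding genes fell to 1348 with the upper part of the thresholded set by signal, against 2352. Members with a pooled-list summit were 1 at 200 bp and 8 at 1000 bp, against 5. Summits inside the complex were 9 with 5000 bp on each side and 18 with all pooled-list peaks, against 5. Motif matches were 13 with 250 bp on each side of the summit, against 4. Leaving out a replicate gave 2 to 3 members, 2296 to 2348 genes, 7 list genes either time, against 6, and 3 to 21 summits inside the complex (without replicate 1, 5 of the highest and 17 of all listed peaks; without replicate 2, 3 and 21). Ranked by q-value, E(spl)m3-HLH and E(spl)m7-HLH tied at rank 1, the ceiling.

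No paired analysis was possible because there is 1 group. With 2 replicates of 1 fly line, unknown depth and signals without a stated scale, ranks cannot be given an error beyond their spread between replicates. A signal from pooled embryos cannot show in which cells the protein was bound.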
